A study of Mus musculus with 16 samples.

Results

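Notch receptors, the proteases that cut them and the nuclear proteins that act with them were followed in haematopoietic stem cells (HSCs) through 9 genes of the 46078 in the count table. The genes were chosen by name: the receptors Notch1 and Notch2, the sheddases Adam10 and Adam17, the DNA-binding factor Rbpj, its coactivator Maml1, the corepressors Tle3 and Tle4, and the target gene Hes1. All 9 were found in the table and all 9 passed the filter on low counts in each comparison.

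RNA was measured in pools of 30 lin-Sca1+cKit+ (LSK) CD48-CD150+ cells, the sort gate for HSCs, taken from long bones of untreated C57/Bl6 mice whose age the labels do not give. Endosteal HSCs came from the bone fraction that stays after flushing, and central HSCs from the marrow fraction. The mice were wild type (WT) or Gfra2-/-, which lack the neurturin receptor GFRα2 in all cells, so HSCs and their surroundings carry the deletion together. Each group had 4 libraries, except for central Gfra2-/- HSCs with 3, here called A to D within a group, in the order of the table and with no pairing between groups. The comparisons ask whether the Notch pathway genes differ between endosteal and central bone marrow (BM) and whether loss of GFRα2 alters them. The study calls the libraries biological replicates, but the labels do not say whether pools of a group came from different animals, so the p-values measure the spread between these libraries, which may in part be technical.

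Notch receptors are single-pass proteins that bind Delta-like or Jagged ligands on a neighbouring cell. Binding exposes the receptor to ADAM proteases, which shed the extracellular part, and γ-secretase then frees the intracellular domain. In the nucleus this domain joins RBPJ and a Mastermind-like coactivator on DNA and replaces corepressors, so that targets such as Hes1 are transcribed. In blood formation the pathway is best known for committing progenitors to the T-cell lineage in the thymus, while its part in adult HSCs of the bone marrow is less settled.

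The libraries differed in depth. Reads counted on genes ranged from 4416648 to 14003634 in WT endosteal, from 826487 to 3367289 in WT central, from 8519094 to 18550008 in Gfra2-/- endosteal and from 7649803 to 14716308 in Gfra2-/- central HSCs. Every WT central library was shallower than every other library, so in the comparisons that use this group depth and group cannot be told apart. The study's quality limit was more than 1500000 uniquely mappable reads, a measure unlike counts on genes. WT central A and C had 1230252 and 826487 counts on genes, the only libraries under that number. The study also set a lower limit on high coverage genes, without giving the counts that such a gene needs. These 2 libraries had the fewest genes with any count, 12683 and 11951, where the others had 14236 or more. In each group 1 library had under 0.5% spike-in reads and the others had more, and differences on the log2(CPM + 1) scale within each of these 2 kinds of library are given beside the results with the smallest p-values. All 8 HSC markers fixed for this work, among them Kit and Slamf1, were detected in all 15 libraries. B-cell and neutrophil markers stood apart in 2 libraries. WT central D had 1888 counts per 1000000 gene counts (CPM, for markers without further normalization) over 3 defining neutrophil markers and 129 CPM over 3 defining B-cell markers, and Gfra2-/- endosteal D had 953 CPM over the B-cell markers. In the other 13 libraries these B-cell markers lay between 0 and 50.6 CPM. Over the whole list of 6 B-cell genes, WT central D had 413 CPM, Gfra2-/- endosteal D had 1860 CPM and the others had 9.2 to 332 CPM. Over the 9 neutrophil and monocyte genes, WT central D had 3719 CPM, WT central C had 2219 CPM and the others had 310 to 1389 CPM. Gfra2-/- endosteal D also had 628 CPM over 7 erythroid genes, where the others had 25.6 to 145 CPM. Gfra2 itself had 0 to 4 counts in WT libraries and 0 or 1 in central Gfra2-/- libraries, but 2, 47, 1 and 9 counts in the endosteal Gfra2-/- libraries A to D. Libraries B and D of that group thus held reads of the gene that their label names as deleted. Library B was the deepest of all 15, at 18550008 gene counts, and WT central C, with 4 Gfra2 counts, was the shallowest, at 826487. Gfra2 was near 0 in WT libraries too, so these counts cannot check the genotype, and groups are named as they were labelled. In pooled cells, fewer cells that express a gene and less RNA in each cell cannot be told apart.

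Promoter sequence is shown for Rbpj, Tle3 and Tle4, the 3 members with an unadjusted p under 0.05 between endosteal and central WT HSCs. The lines give 250 bases of GRCm38.p6 before a RefSeq transcription start, 5′ to 3′ on the strand of the gene, at chr5:53590096-53590345 (+ strand) for Rbpj, chr9:61372116-61372365 (+ strand) for Tle3 and chr19:14598184-14598433 (- strand) for Tle4. Capitals mark TGGGAA, the core of the RBPJ binding motif, or CACGTG, an E-box read by basic helix-loop-helix proteins, on either strand.
Rbpj: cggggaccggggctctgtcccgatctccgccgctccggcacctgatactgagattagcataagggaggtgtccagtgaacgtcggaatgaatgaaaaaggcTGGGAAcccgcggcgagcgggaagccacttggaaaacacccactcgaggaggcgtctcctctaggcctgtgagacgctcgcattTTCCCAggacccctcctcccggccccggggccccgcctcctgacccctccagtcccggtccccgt
Tle3: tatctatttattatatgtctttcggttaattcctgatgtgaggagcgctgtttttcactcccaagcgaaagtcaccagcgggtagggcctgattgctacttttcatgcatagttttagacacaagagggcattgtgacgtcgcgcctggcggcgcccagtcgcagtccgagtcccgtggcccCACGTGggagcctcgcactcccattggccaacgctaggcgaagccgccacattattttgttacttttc
Tle4: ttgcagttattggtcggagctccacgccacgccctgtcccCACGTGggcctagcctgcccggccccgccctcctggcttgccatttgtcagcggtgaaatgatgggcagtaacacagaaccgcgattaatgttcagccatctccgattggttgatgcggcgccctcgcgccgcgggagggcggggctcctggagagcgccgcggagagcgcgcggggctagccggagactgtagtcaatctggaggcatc
The table of promoters held 10 windows of 8 members and none of Hes1. Rbpj was the 1 member with TGGGAA, which it held in 2 overlapping windows that share 1 of the matches, against 21.6% of all 32851 windows of this length. The E-box stood in 3 of 10 windows, of Adam10, Tle3 and Tle4, against 6.02% of all windows. It began at position -68 from the start in Tle3 and at position -210 in the Tle4 window shown. The other Tle4 window, chr19:14597214-14597463, held neither motif. A match describes these letters only, and binding was not measured.

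Levels per length of exon set the members apart from each other, on CPM scaled to TMM-normalized library totals as in all values of members here. Length is the union of all annotated exons of a gene, and which of its transcripts were present was not tested. Adam10, the main protease of ligand-induced receptor shedding, had the highest median over the 15 libraries at 55.2 CPM per kb of exon, with a range from 21.8 to 104. Adam17, a sheddase better known for releasing TNF, followed at 13.5 CPM per kb, and Notch2 at 11.4 CPM per kb. Below them lay Tle4 at 8.16, Maml1 at 4.21, Rbpj at 3.30, Notch1 at 1.93, Tle3 at 1.34 and Hes1 at 0.714 CPM per kb. Adam10 was above Adam17 per kb in 15 of 15 libraries. Adam17 and Notch2 are neighbours whose ranges overlapped, with Adam17 the higher in 6 of 15 libraries, and Rbpj was above Maml1 in 8 of 15. The order depends on the length used. In CPM not divided by length, the median of Notch2 (123) was above that of Adam17 (96.4), and that of Rbpj (42.1) above that of Maml1 (23.3).

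**Figure D1:**
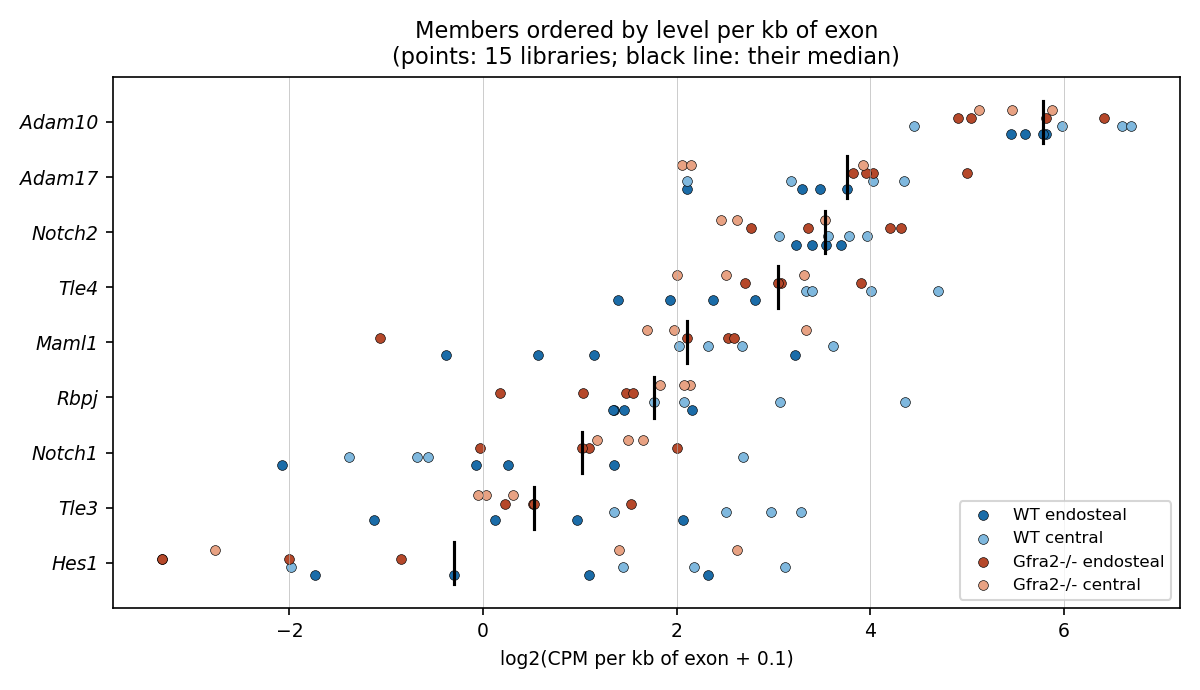
Level of each member per kb of exon, as log2(CPM per kb + 0.1), in 15 libraries coloured by group; the black line is the median over the libraries. Adam10 lies highest, at a median of 55.2 CPM per kb, and Hes1 lowest, at 0.714 CPM per kb.

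Notch2 was the main receptor transcript in these cells, by level alone. Per kb of exon, Notch2 stood above Notch1 in 15 of 15 libraries, by 1.30 to 84.1 times with a median of 8.98 times. The smallest ratio was in WT central D, the library with neutrophil and B-cell markers. In CPM not divided by length, Notch1 was slightly above Notch2 in that library, at 90.0 and 88.6 CPM, and below it in all others. The other receptors were lower still, with medians per kb of 0.87 CPM for Notch3 and 0.01 CPM for Notch4, which had more than 3 counts in 4 of 15 libraries.

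Notch1 (chr2:26457903-26516663, - strand) had 1.95, 12.1, 15.6 and 35.0 CPM in WT endosteal A to D and 8.15, 7.46, 4.02 and 90.0 CPM in WT central A to D. In libraries labelled Gfra2-/- it had 55.5, 29.02, 27.4 and 12.5 CPM in endosteal and 30.9, 38.8 and 43.4 CPM in central HSCs. WT central D was the highest of all 15 libraries while the other WT central libraries were among the lowest, and all groups overlapped. The raw counts were 9, 24 and 3 in WT central A to C and 267 in D. Between WT endosteal and central HSCs the log2 fold change was -0.81 ± 1.17 (SE), with an adjusted p of 0.902 in edgeR. Without WT central D it turned to 1.24, and in the libraries with at least 0.5% spike-in reads to 0.53, so its sign rested on 1 library. Whether the B-cell and neutrophil markers of that library bear on its Notch1 level was not tested. Between genotypes Notch1 was 0.94 ± 0.87 (log2, SE) higher in endosteal Gfra2-/- HSCs, with an adjusted edgeR p of 0.877, and 0.40 ± 1.09 higher in central ones, with an adjusted p of 0.950. Without WT central D the central difference was 2.47, with an unadjusted edgeR p of 0.0344 and an adjusted p of 0.411, and on the log2(CPM + 1) scale it was 2.29 at or above 0.5% spike-in reads and -1.03 between the single libraries below. In the fits of all libraries both signs turned with spike-in library sizes, to -0.34 and -1.02 relative to the median of all genes.

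Notch2 (chr3:98013527-98150361, + strand) varied little. It had 100 to 139 CPM in WT endosteal, 88.6 to 167 CPM in WT central, 72.5 to 214 CPM in Gfra2-/- endosteal and 58.0 to 123 CPM in Gfra2-/- central libraries, and these ranges overlapped. Its biological coefficient of variation, the spread between libraries of a group that edgeR estimates beyond counting error, was 0.42, and 6.57% of the 15416 genes tested over all groups had a smaller one. Adam10 was close to it at 0.44, and the trend over genes at the level of Notch2 was 0.53. The difference between WT endosteal and central HSCs was -0.17 ± 0.39 (log2, SE; approximate 95% confidence interval -0.93 to 0.59). Confidence intervals here rest on a normal approximation and are narrower than the edgeR test itself would give. Within libraries labelled Gfra2-/- endosteal HSCs were 0.85 ± 0.47 (log2, SE) higher, with an adjusted edgeR p of 0.999. Notch2 shares exon bases with Gm42820, which had 0 to 276 counts, and counting ignored strand.

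The sheddases differed in how they varied. Adam10 (chr9:70678997-70780229, + strand) ranged from 107 to 510 CPM, with the lowest value in WT central C and the highest in WT central D. Mean levels were 250 ± 28.9 CPM (SD, n = 4) in WT endosteal, 351 ± 185 (n = 4) in WT central, 251 ± 125 (n = 4) in Gfra2-/- endosteal and 226 ± 59.7 (n = 3) in Gfra2-/- central HSCs. In the fits of all libraries the differences between groups lay within the spread between libraries, and the smallest unadjusted edgeR p of the 4 comparisons was 0.191. Without WT central C, Adam10 was lower than in WT central HSCs by a log2 fold change of -0.81 in WT endosteal HSCs (unadjusted edgeR p of 0.019) and of -0.97 in Gfra2-/- central HSCs (0.0195). Between the endosteal groups the log2 fold change was 0.00 with an approximate 95% confidence interval from -0.66 to 0.66.

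Adam17 (chr12:21323509-21373632, - strand) had 79.4, 96.4, 69.4 and 30.2 CPM in WT endosteal A to D and 100, 116, 229 and 110 CPM in Gfra2-/- endosteal A to D. Each of the endosteal Gfra2-/- libraries was thus above each of the WT ones, if by little at the border, where 96.4 and 100 CPM met. The log2 fold change was 1.02 ± 0.44 (SE), with an unadjusted edgeR p of 0.0411 and an adjusted p of 0.737. An exact two-sided permutation test of log2(CPM + 1) gave p = 0.0286, the smallest that 4 against 4 or 4 against 3 libraries allow, and 0.257 after adjustment over the 36 tests of 9 members in 4 comparisons. Where spike-in reads made up at least 0.5% the difference was 0.77, and between the single libraries below that share it was 1.83.

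Central HSCs had 145, 30.2, 64.4 and 116 CPM of Adam17 in WT A to D and 28.98, 108 and 30.9 CPM in Gfra2-/- A to C. Central Gfra2-/- B thus reached the range of the endosteal Gfra2-/- libraries, while A and C lay well below it. Between endosteal and central Gfra2-/- HSCs the log2 fold change was 1.31 ± 0.57 (SE), with an unadjusted edgeR p of 0.0485 and an adjusted p of 0.999. At or above 0.5% spike-in reads the difference was 1.29, and below it 1.80. The fold change was 2.22 without central B, the library with 37.3 CPM over 3 defining T-cell markers, and 0.96 without endosteal C. Exons of Adam17 overlap those of Iah1 on the other strand, which had 2 to 641 counts.

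RBPJ carries the receptor's intracellular domain to DNA and in its absence holds targets silent. Rbpj (chr5:53466152-53657362, + strand) had 33.6, 31.2, 31.1 and 55.6 CPM in WT endosteal A to D and 106, 52.5, 261 and 42.1 CPM in WT central A to D. The 3 lowest endosteal libraries lay close together, library D reached into the central range, and central C stood highest at 195 counts in the shallowest library. This library had 2219 CPM over the neutrophil and monocyte genes, of which 4.84 CPM came from the 3 defining markers, and 271 CPM over 5 stromal genes, where the others had 0.43 to 54.9 CPM. Its 8 HSC markers summed to 1471 CPM, where the others had 2168 CPM or more. The part of these in the Rbpj value was not tested. The log2 fold change of endosteal over central HSCs was -1.62 ± 0.65 (SE), with an unadjusted edgeR p of 0.0262 and an adjusted p of 0.584. The exact permutation test gave p = 0.0857. Among libraries with at least 0.5% spike-in reads the difference was -1.80, but between the single libraries below that share it was 0.39. It was -0.83 without WT central C, and -0.34 in libraries with over 1500000 gene counts, a limit that 2 central libraries did not reach.

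In libraries labelled Gfra2-/-, Rbpj had 34.3, 24.8, 13.1 and 35.9 CPM in endosteal and 54.7, 44.1 and 52.4 CPM in central HSCs. All 4 endosteal libraries were below all 3 central ones. The log2 fold change was -0.90 ± 0.53 (SE), with an adjusted edgeR p of 0.999, and the exact permutation test gave p = 0.0857. These groups share no library with the WT comparison. At or above 0.5% spike-in reads the difference was -1.10, and below that share it was -0.53. Rbpj has 2 processed copies in the table, Rbpj-ps1 with 0 to 106 counts and Rbpj-ps3 with 6 to 145, and reads could have been split between them and the gene.

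Maml1 (chr11:50255634-50292311, - strand), which bridges the RBPJ complex to histone acetyltransferases, was among the more variable members. It ranged from 3.68 to 51.2 CPM in WT endosteal, 21.9 to 67.2 CPM in WT central, 2.10 to 32.8 CPM in Gfra2-/- endosteal and 17.4 to 55.3 CPM in Gfra2-/- central libraries. All ranges overlapped, and the unadjusted edgeR p of the 4 comparisons was 0.294 or above. Between WT endosteal and central HSCs the log2 fold change was -1.04 ± 0.95 (SE), and it was -2.35 without WT endosteal A, with an unadjusted edgeR p of 0.0297.

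TLE3 and TLE4 are Groucho-type corepressors that HES proteins and other factors recruit to keep target genes silent. Tle3 (chr9:61372366-61418497, + strand) had 47.5, 21.7, 11.5 and 4.17 CPM in WT endosteal A to D, 65.2, 90.5, 113 and 28.6 CPM in WT central A to D, 32.4, 12.5, 15.5 and 15.6 CPM in Gfra2-/- endosteal A to D, and 10.8, 10.1 and 13.2 CPM in Gfra2-/- central A to C. The 3 Gfra2-/- central libraries lay in a narrow band below every WT central library, while endosteal WT A lay above WT central D.

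Between central HSCs of the genotypes, Tle3 was lower in libraries labelled Gfra2-/-. The log2 fold change was -2.72 ± 0.78 (SE; approximate 95% confidence interval -4.25 to -1.20), with an unadjusted edgeR p of 0.00448 and an adjusted p of 0.318. The exact permutation test gave p = 0.0571. The difference was -2.95 at or above 0.5% spike-in reads and -1.06 between the single libraries below. DESeq2 called Tle3 in this comparison, at -2.82 (log2) with an adjusted p of 0.00101. The fold change stayed between -3.01 and -2.45 with each library left out in turn, and it was -2.85 with all libraries thinned to the depth of the shallowest. With spike-in library sizes it was -1.83 relative to the median of all genes. Between WT endosteal and central HSCs it was -1.82 ± 0.82 (SE), with an unadjusted edgeR p of 0.0443 and an adjusted p of 0.623, and the difference was -1.88 at or above 0.5% spike-in reads and -2.52 below.

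Tle4 (chr19:14448150-14598051, - strand) had 14.4, 21.2, 39.3 and 29.05 CPM in WT endosteal A to D and 57.0, 59.7, 147 and 91.3 CPM in WT central A to D. Every WT endosteal library was below every WT central library. The log2 fold change was -1.79 ± 0.62 (SE; approximate 95% confidence interval -3.01 to -0.58), with an unadjusted edgeR p of 0.0127 and an adjusted p of 0.508. The exact permutation test gave the smallest possible p of 0.0286, and 0.257 after adjustment over the 36 tests. At or above 0.5% spike-in reads it was -1.75, and between the single libraries below it was -1.62. DESeq2 called it at -1.90 (log2) with an adjusted p of 0.0247, where the median over all genes in that fit was -0.26. The fold change lay between -2.06 and -1.43 with each library left out. The value of -1.43 was that without WT central C, with an unadjusted edgeR p of 0.0509. This shallowest library held the highest Tle4 level of all 15 libraries, from 110 counts, and the highest Tle3 level, from 84 counts. Its stromal and HSC markers are given with Rbpj, and their part in these values was not tested.

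In libraries labelled Gfra2-/-, Tle4 had 36.6, 85.2, 47.6 and 46.5 CPM in endosteal and 56.1, 31.9 and 22.3 CPM in central HSCs, and these ranges overlapped. Endosteal HSCs were 0.56 ± 0.53 (log2, SE) higher here, with an adjusted edgeR p of 0.999. Central Gfra2-/- libraries were all below the WT central ones, at a log2 fold change of -1.30 ± 0.65 (SE). The unadjusted edgeR p was 0.0696 and the adjusted p 0.610. The exact permutation test gave the smallest possible p of 0.0286, and 0.257 after adjustment over the 36 tests. The difference between central genotypes was -0.90 at or above 0.5% spike-in reads and -1.98 below. Endosteal Gfra2-/- HSCs had a log2 fold change of 1.05 ± 0.54 (SE) over WT, with an adjusted edgeR p of 0.750. The comparisons of WT central HSCs with WT endosteal and with Gfra2-/- central HSCs share the 4 WT central libraries, so their values for Tle3 and Tle4 are not independent of each other.

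**Figure D2:**
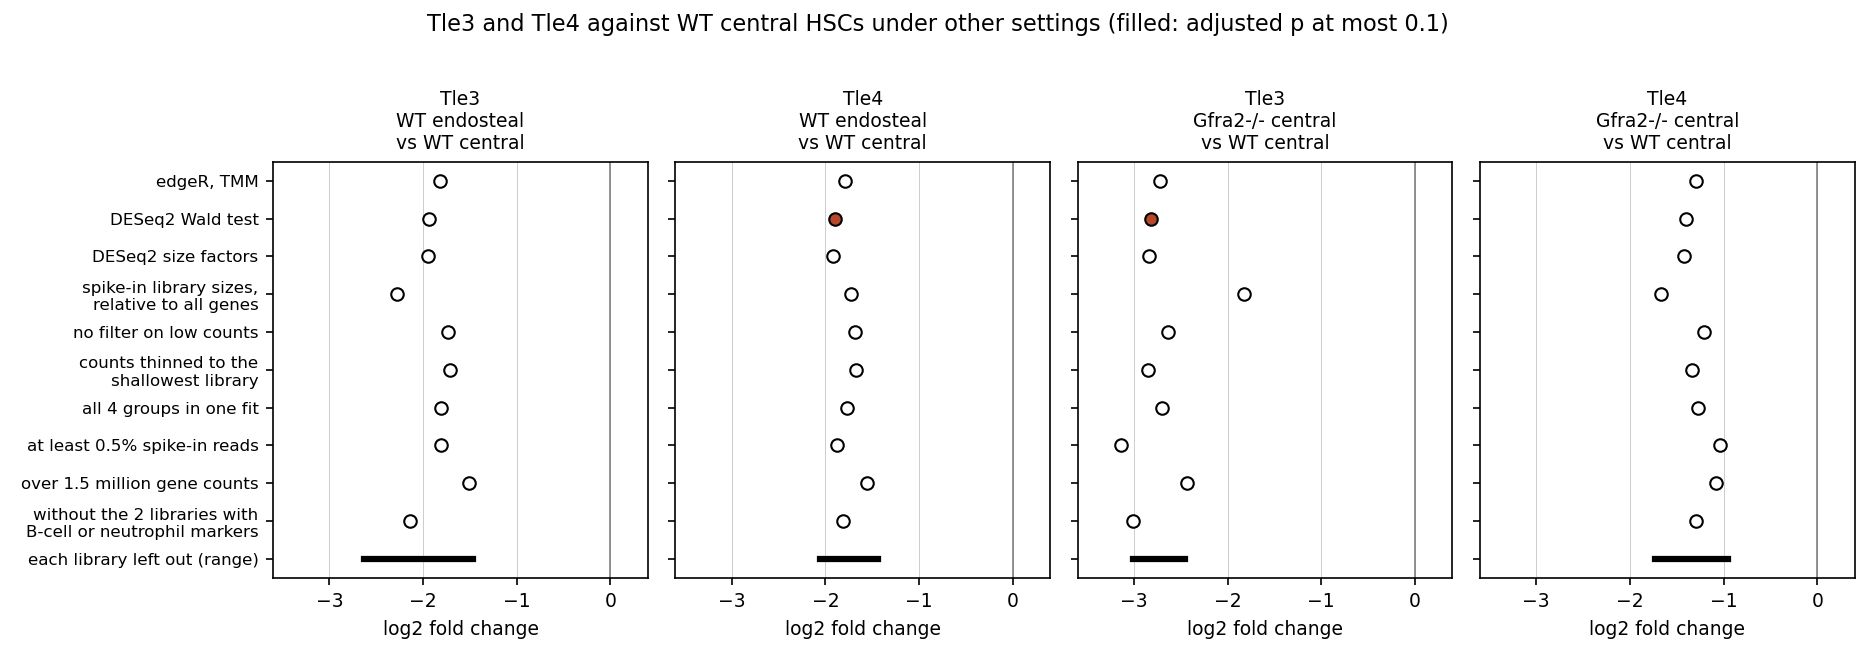
log2 fold change of Tle3 and Tle4 against WT central HSCs with edgeR, with 9 other settings and, as a black bar, over the range with each library left out. All points lie below 0, and filled points, both from DESeq2, mark an adjusted p of at most 0.1.

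Hes1 (chr16:30064384-30067796, + strand), a basic helix-loop-helix repressor and a direct target of RBPJ, was the lowest and most variable member. It had 4.14, 9.99, 1.45 and 0.409 CPM in WT endosteal A to D and 9.05, 0.311, 5.36 and 17.5 CPM in WT central A to D. In libraries labelled Gfra2-/- the raw counts were 0, 6, 8 and 0 in endosteal A to D and 79, 1 and 96 in central A to C. The 2 counts of 0 allow up to 3 counts in each of those libraries. The endosteal Gfra2-/- libraries were all under 1 CPM, and WT endosteal D, WT central B and central Gfra2-/- B fell in the same range.

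Between endosteal HSCs, Hes1 was lower in libraries labelled Gfra2-/-, at a log2 fold change of -3.70 ± 1.59 (SE), with an unadjusted edgeR p of 0.0415 and an adjusted p of 0.737. The exact permutation test gave p = 0.0571. At or above 0.5% spike-in reads the difference in log2(CPM + 1) was -1.93, and below it -0.49. Within libraries labelled Gfra2-/- it was -4.24 ± 1.97 (SE) in endosteal over central HSCs, with an adjusted edgeR p of 0.999. Both fitted values rest on endosteal Gfra2-/- counts at or near 0, and DESeq2 gave -3.73 and -4.30. On the log2(CPM + 1) scale over all libraries the differences were -1.57 and -1.83, the latter with -0.94 at or above 0.5% spike-in reads and -3.74 below. The biological coefficient of variation of Hes1 was 1.47, above that of 76.2% of genes.

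**Figure D3:**
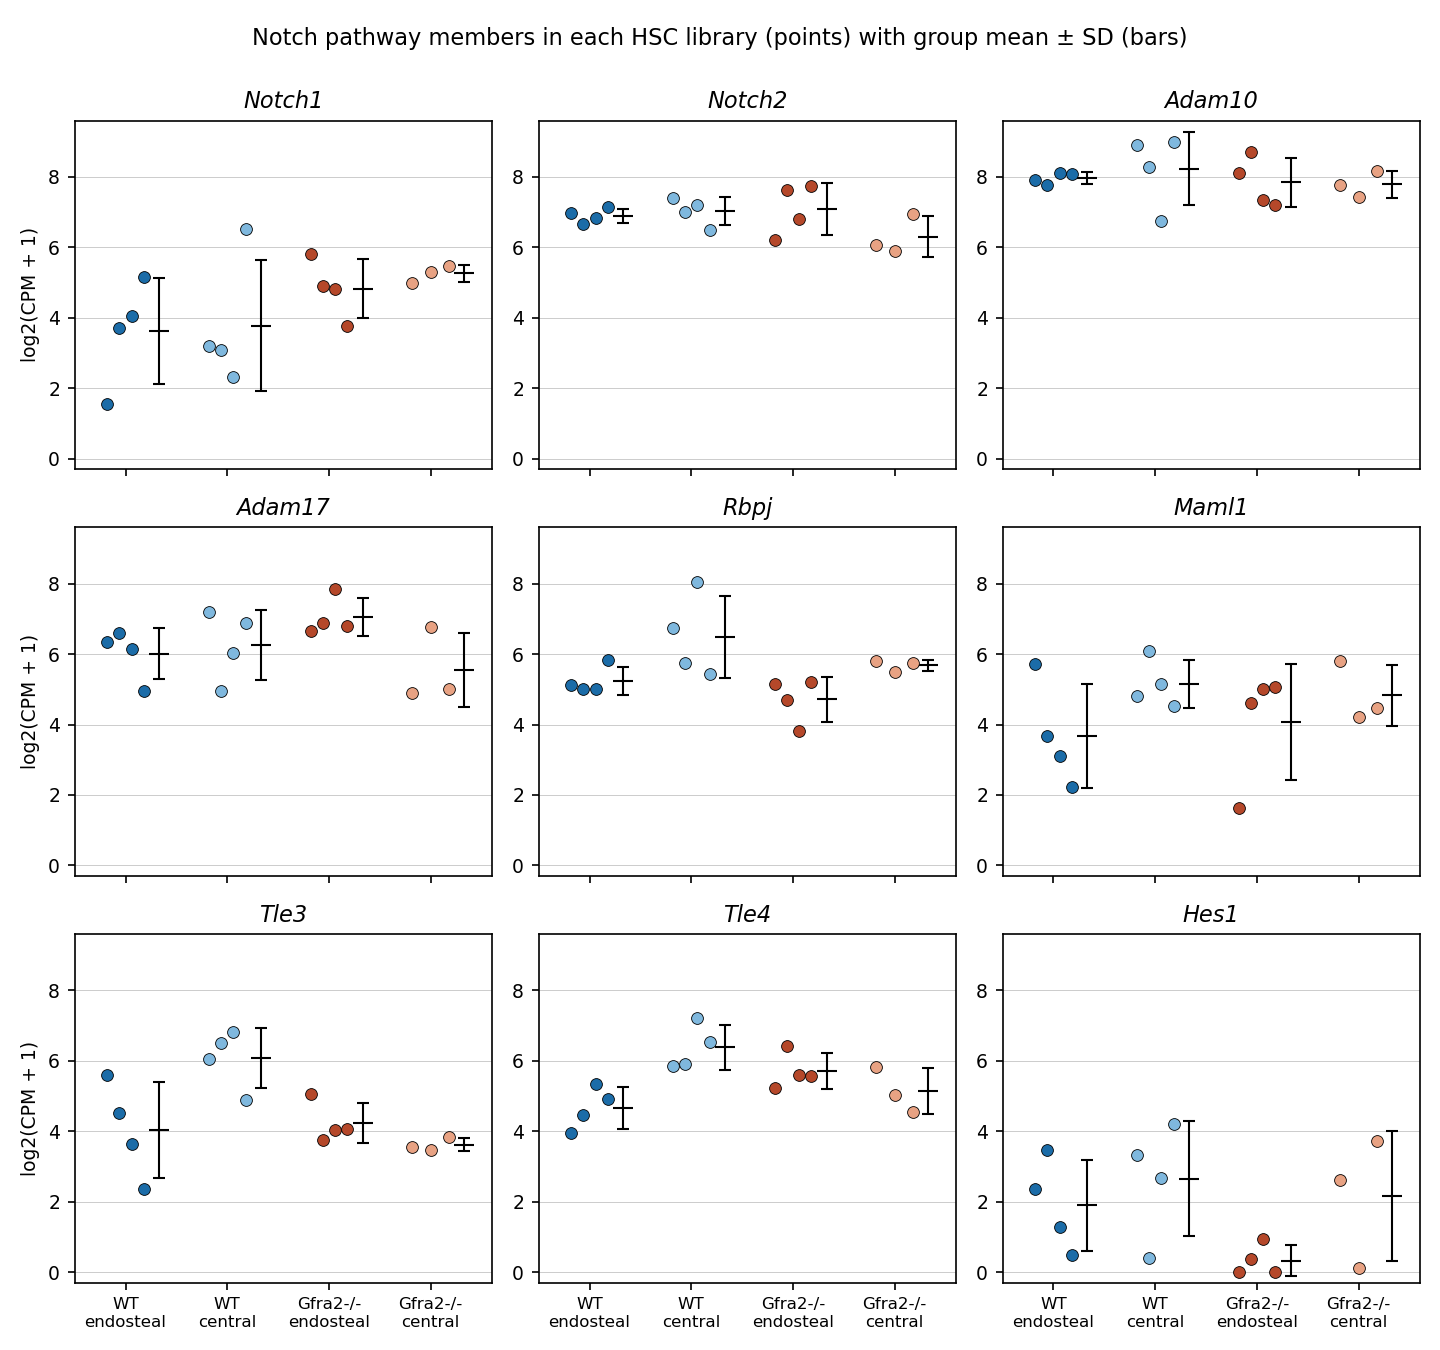
log2(CPM + 1) of the 9 members in the 15 libraries (points, by group), with the group mean ± SD as bars. Tle4 in WT endosteal libraries (14.4 to 39.3 CPM) lies below WT central libraries (57.0 to 147 CPM), and Hes1 is under 1 CPM in all 4 endosteal Gfra2-/- libraries.

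Counted together, the 9 members gave no call at an FDR of 0.1 in edgeR in any of the 4 comparisons or in the interaction. Over all genes tested, the share called was 0% between WT endosteal and central HSCs, 0% between endosteal and central Gfra2-/- HSCs, 0.051% between central HSCs of the genotypes, 0% between endosteal HSCs of the genotypes and 0% for the interaction. DESeq2 called 1 member between WT endosteal and central HSCs (Tle4), 1 between central HSCs of the genotypes (Tle3), 1 in the interaction (Tle4) and 0 in the other comparisons. It called 2.97%, 3.57% and 1.04% of all genes it tested in the first 3 of these. Those were 20374, 20326 and 23304 genes, without the filter on low counts that all members passed. The shares are thus not those of genes at the members' levels.

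Between WT endosteal and central HSCs, 9 of 9 members were lower in endosteal HSCs, where 48.5% of all 11181 genes were. Their median log2 fold change was -1.04 and that of all genes 0.03. The sign turned for Notch1, Notch2 and Hes1 in some settings, Notch2 to 0.28 with spike-in library sizes and Hes1 to 0.039 in libraries with at least 0.5% spike-in reads. At an unadjusted p under 0.05 there were 3 members, Rbpj, Tle3 and Tle4, all lower, against 7.89% of all genes in either direction. With 1 library left out, Tle4 alone was under 0.05 without WT endosteal B or WT endosteal C, and Maml1 joined the 3 without WT endosteal A. Rbpj and Tle4 were under 0.05, and Tle3 was not, without WT endosteal D, WT central A or WT central B. Without WT central C none of the 3 was under 0.05 and Adam10 was, and the same held in libraries with over 1500000 gene counts, which leave out WT central A and C. The groups did not overlap for 1 member, Tle4, against 6.36% of all genes.

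Between endosteal and central HSCs labelled Gfra2-/-, 4 of 9 members were lower in endosteal HSCs, against 48.4% of all 13860 genes, and their median log2 fold change was 0.15. Adam17 was the 1 member with an unadjusted p under 0.05, against 4.79% of all genes. Its p was above 0.05 without endosteal B, C or D or central A or C, and 2 members were under 0.05 without endosteal A or central B. Rbpj was the 1 member whose groups did not overlap, against 7.34% of all genes.

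Central HSCs labelled Gfra2-/- had 8 of 9 members lower than WT, against 48.6% of all 11772 genes, with a median log2 fold change of -0.70. Tle3 was the 1 member with an unadjusted p under 0.05, against 8.73% of all genes, with 2 members without WT central A or C and 3 without WT central D. The groups did not overlap for 2 members, Tle3 and Tle4, against 12.4% of all genes. Endosteal HSCs labelled Gfra2-/- had 3 of 9 members lower than WT, against 48.5% of all 12970 genes, with a median of 0.29. Hes1 (lower) and Adam17 (higher) had an unadjusted p under 0.05, against 6.69% of all genes, and with 1 library left out 0 or 1 of them did, 0 without WT endosteal A, WT endosteal C or Gfra2-/- endosteal B. Adam17 was the 1 member without overlap, against 6.24% of all genes.

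**Figure D4:**
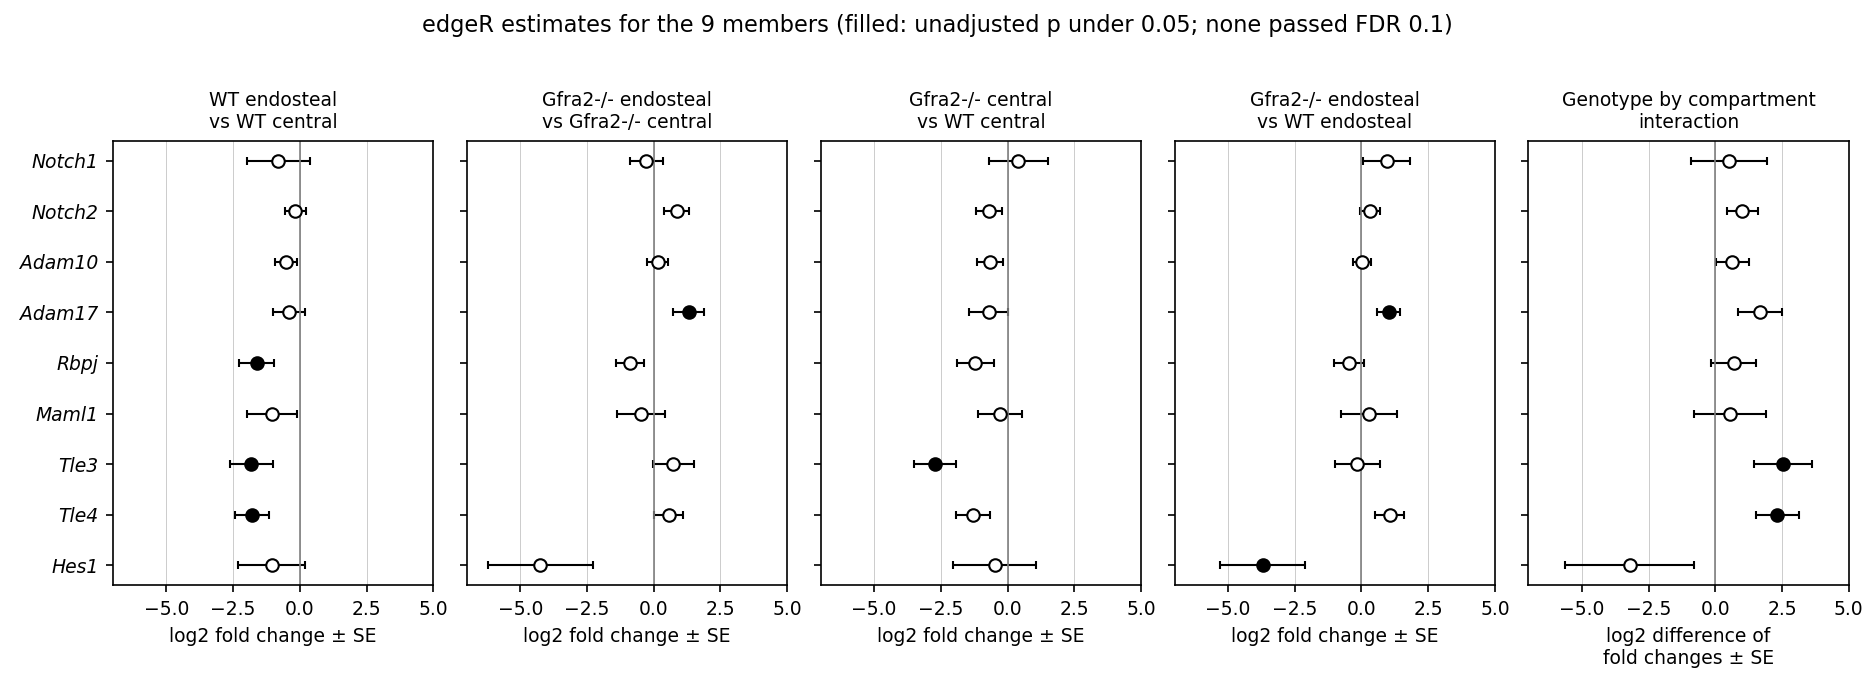
edgeR log2 fold change ± SE of the 9 members in 4 comparisons, and the interaction (the compartment difference in Gfra2-/- minus that in WT libraries). Filled points have an unadjusted p under 0.05; Tle3 and Tle4 lie below 0 in WT endosteal against WT central HSCs and above 0 in the interaction.

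The interaction tests whether the difference between endosteal and central HSCs itself differs between the genotypes. Tle4 had an interaction of 2.32 ± 0.80 (log2, SE), from -1.79 in WT to 0.56 in libraries labelled Gfra2-/-, with an unadjusted edgeR p of 0.00976 and an adjusted p of 0.539. DESeq2 gave 2.48 with an adjusted p of 0.0332. For Tle3 the interaction was 2.55 ± 1.09 (log2, SE), with an unadjusted edgeR p of 0.0314 and an adjusted p of 0.647. Adam17 followed at 1.68 ± 0.83 (log2, SE), with an adjusted edgeR p of 0.713. These were the 2 members under an unadjusted p of 0.05, Tle3 and Tle4, against 6.97% of all 15416 genes, and 1 of them was left without WT endosteal C, WT central C or Gfra2-/- central A. The interaction was above 0 for 8 of 9 members, against 46.3% of all genes, with Hes1 at -3.21 ± 2.41 (log2, SE) the exception. Each interaction includes the shallow WT central libraries, and depth cannot be told apart from them.

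Among the other genes of the pathway, 59 of 60 listed symbols were in the table, and the other, Tle5, is a second symbol of Aes, which was. In the 4 comparisons 41, 47, 43 and 43 of them were tested, and none passed an FDR of 0.1. At an unadjusted p under 0.05 there were 1, 0, 2 and 3 of these genes, where 7.89%, 4.79%, 8.73% and 6.69% of all genes tested were. Between WT endosteal and central HSCs, 18 of 41 were higher and 23 lower in endosteal HSCs, at a median log2 fold change of -0.06. Rfng, a Fringe glycosyltransferase that modifies Notch receptors, was the gene under 0.05 here, at 2.12 ± 0.73 (log2, SE) with an adjusted edgeR p of 0.505. Aes, a short relative of the TLE corepressors, had log2 fold changes of -1.09 ± 0.49 (SE) in central and -1.05 ± 0.41 (SE) in endosteal Gfra2-/- HSCs over WT, with adjusted edgeR p-values of 0.555 and 0.737. Aph1b, a γ-secretase subunit, stood at 3.27 ± 1.15 and Crebbp, a histone acetyltransferase, at 0.66 ± 0.24 (log2, SE) in endosteal Gfra2-/- HSCs over WT, both with an adjusted edgeR p of 0.737. For the interaction 1 of 50 was under 0.05, against 6.97% of all genes, the ubiquitin ligase gene Dtx4, which had more than 3 counts in 4 of 15 libraries.

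The share of genes detected differed between the pathway's parts. All 7 further coactivators and all 10 further corepressors (listed under 11 symbols) had more than 3 counts in all 15 libraries. So did 5 of 6 genes for receptor modification, of which Mfng, a Fringe glycosyltransferase, reached a median of 89.3 CPM per kb. Of the γ-secretase genes 3 of 7 did, and of the genes for endocytosis and turnover 4 of 9. None of the 6 ligand genes did. Jag2 had more than 3 counts in 13 of 15 libraries and Jag1 in 9, while Dll4 did in 4, with up to 658 counts, and Dll3 had at most 1 count. Of 12 further genes listed as targets, 5 had 3 counts or fewer in every library, among them Hey2, Heyl and Ptcra with 0 counts. Among the targets known from T-cell development, Ptcra and Il2ra had at most 1 count in any library, Tcf7 and Dtx1 had more than 3 counts in 5 and 2 libraries, and Gata3 in all 15. Gata3 and Hes6 were the 2 genes of this list above 3 counts everywhere, with medians of 40.3 and 79.3 CPM. Whether either depends on Notch in these cells was not tested, so their levels are no measure of Notch activity. For a gene with 0 counts in a library up to 3 counts are allowed, and a level under that was not detectable at this depth.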

How the data were processed

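HSC pools were sequenced with Smart-seq2, which amplifies polyadenylated RNA by PCR without molecular identifiers, so depth covers counting error only. The authors aligned single-end reads to GRCm38 (mm10) with GSNAP and made counts per gene with htseq-count (HTSeq 0.5.3p3 in the submitters' processing notes), without regard to strand, and deposited them without normalization or filter, with 92 spike-in rows and 5 summary rows that were left out of tests and library sizes. Groups of the 15 columns followed the study's list of libraries, and 1 further column was not used. Symbols and positions came from GENCODE M21, which holds 45229 of the 46078 genes, and promoter windows from RefSeq.

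Counts were tested with edgeR 4.0.16 (R 4.3.3): the libraries of both groups (all 15 for the interaction), filterByExpr, TMM, the quasi-likelihood test, Benjamini-Hochberg adjustment over all genes tested and an FDR of 0.1. The study used DESeq2, and DESeq2 1.42.0 was an alternative. The SE of a fold change was derived from the test's F statistic. Confidence intervals used a normal approximation with this SE, so they are narrower than the quasi-likelihood test implies, and p-values come from the test. CPM used TMM totals over all 15 libraries, and exact two-sided permutation tests used log2(CPM + 1). The fits were tested on simulated data. Members, lists and tests were chosen with earlier results of these data known. Text names all members, pathway genes under an unadjusted p of 0.05 (at most 3 per comparison), and for Notch1, Notch2 and Hes1 the 3 genes most correlated over libraries. Detection and levels of further pathway genes (Mfng, Gata3 and Hes6 among them) were named after their values were seen. A gene that this rule names is not reported here. The 52 marker symbols and 59 of 60 pathway symbols were found. Alternatives were DESeq2's test and size factors, spike-in library sizes, no filter, thinning to 826487 counts, 1 fit of all groups, subsets by spike-in share or depth, an FDR of 0.05, pseudocounts of 0.5 and 5, plain totals, and each library left out.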

Additional observations from a re-analysis of the deposited data

Results flagged for a closer look

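A library far from the rest of its group was looked for in the 9 members over the 3 groups of 4 libraries, 27 tests in all, by setting the gap between the extreme library and its nearest neighbour against the whole range on the log2(CPM + 1) scale. Chance marks about 1 in 20 such groups. Rbpj in WT endosteal D was at 5.82 (55.6 CPM), with a gap of 0.865 of the range, while WT endosteal A to C lay between 31.1 and 33.6 CPM. Maml1 in Gfra2-/- endosteal A was at 1.63 (2.10 CPM), with a gap of 0.862 of the range, while the other libraries of that group lay between 23.3 and 32.8 CPM.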

How the results depend on the processing

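No paired analysis was possible because the count columns carry no replicate numbers. Of 45 fold changes (9 members in 4 comparisons and the interaction), 28 kept their sign under all alternatives and 17 did not, and the cause was not tested. DESeq2 past an FDR of 0.1 gave 1 member between WT compartments, 1 between central genotypes and 1 in the interaction, where edgeR gave 0. Members under an unadjusted edgeR p of 0.05 were 3 (WT compartments), 1 (Gfra2-/- compartments), 1 (central genotypes), 2 (endosteal genotypes) and 2 (interaction). DESeq2 gave 3 between Gfra2-/- compartments, 2 between central genotypes, 3 between endosteal genotypes and 4 in the interaction, and thinned counts gave 2 between WT compartments (Rbpj and Tle4). Spike-in library sizes, which shifted the median of all genes by 1.58, -0.46, 1.75, -0.28 and -2.18, gave 0, 0, 1 and 0 for WT compartments, central genotypes, endosteal genotypes and interaction, on p-values that were not centred on that median. Libraries with at least 0.5% spike-in reads gave 0 for Gfra2-/- compartments, 0 for endosteal genotypes and 1 for the interaction. Libraries over 1500000 counts gave 1 (Adam10, with none of Rbpj, Tle3 and Tle4), 2 and 1 for WT compartments, central genotypes and interaction. One fit of all 4 groups gave 2 for central and 0 for endosteal genotypes, while no filter and thinned counts each gave 1 for endosteal genotypes. For Gfra2-/- compartments, spike-in library sizes and the fit of all groups each left the count at 1, but with another member. Hes1 had unadjusted edgeR p-values of 0.00559 and 0.0398 there, and Adam17 had 0.336 and 0.0509. Without the 2 libraries with B-cell or neutrophil markers, chosen after seeing the data, there were 0 for Gfra2-/- compartments, 3 for central and 1 for endosteal genotypes. With each library left out the counts ran from 1 to 4, 0 to 2, 1 to 3, 0 to 1 and 1 to 3 in the order above.

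Signs that turned, as log2 fold changes, were these. For WT compartments Notch1 was 0.53 with at least 0.5% spike-in reads and 1.24 without the marker libraries (each library left out, -1.50 to 1.24, positive without WT central D), Notch2 was 0.28 with spike-in sizes and 0.13 over 1500000 counts, and Hes1 was 0.039 with at least 0.5% spike-in reads. For Gfra2-/- compartments Notch1 was 0.11 with at least 0.5% spike-in reads, Adam10 was -0.41 with spike-in sizes (left out, -0.21 to 0.38, negative without endosteal B or central B), and Maml1 ran from -0.76 to 0.21, positive without central A. For central genotypes Notch1 was -1.02 with spike-in sizes and -0.42 over 1500000 counts, Rbpj was 0.048 over 1500000 counts, Hes1 was 0.26 without the marker libraries (left out, -1.68 to 0.26, positive without WT D or Gfra2-/- B), and Maml1 ran from -0.99 to 0.14, positive without WT B. For endosteal genotypes Notch1 was -0.34 with spike-in sizes, Maml1 was -0.30 with at least 0.5% spike-in reads (left out, -0.051 to 1.53, negative without WT D), and Tle3 was 0.98 with spike-in sizes and 0.010 thinned (left out, -0.56 to 0.59, positive without WT A). Adam10, near 0 there, was -0.0066 with DESeq2 size factors, -0.47 with spike-in sizes and -0.040 thinned (left out, -0.37 to 0.18). For the interaction Notch1 was -0.52 with at least 0.5% spike-in reads and -1.30 without the marker libraries (left out, -1.56 to 1.21, negative without WT central D), Rbpj was -0.26 with spike-in sizes and -0.59 over 1500000 counts (left out, -0.11 to 0.98, negative without WT central C), and Maml1 was -0.079 with at least 0.5% spike-in reads. Hes1 in every comparison, and Notch1 between WT compartments, did not pass the filter with thinned counts, and neither did Hes1 between Gfra2-/- compartments without endosteal C.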

Other observations

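The genes whose log2(CPM + 1) followed a member most closely over the 15 libraries, among 15416 genes, are given as a description, since the libraries share depth and groups. For Notch1 they were Hjurp, a centromere histone chaperone (Pearson's r = 0.888), Chst12 (0.879) and Fam98c (0.872). For Notch2 they were Cycs, which encodes cytochrome c (0.799), Dstyk (0.787) and Cdr2l (0.765). For Hes1 they were Gm28720 (0.832), Dmwd (0.795) and Dicer1, the endonuclease that makes miRNAs (0.794).

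The members followed each other little. Over the 36 pairs of members r ranged from -0.61 (Notch1 with Tle3) to 0.51 (Rbpj with Tle3), with a median of 0.08, and 23 pairs were above 0.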
